A study of Arabidopsis thaliana with 30 samples.

Results

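The transcript response of ahp4 mutant roots of Arabidopsis thaliana, a small cress that serves as a plant model, to a short cytokinin treatment was read from 8 root libraries of a series of 30. The 4 BA libraries came from ahp4 roots kept for 2 h with 100 nM 6-benzylaminopurine (BA), a synthetic cytokinin, and the 4 mock libraries came from ahp4 roots kept for the same time with the solvent, 0.1% DMSO, alone. The genes described are all 18909 of the 33199 features in the deposited table that had an FPKM (fragments scaled to gene length and to library size) of 1 or more in at least 3 of these 8 libraries. The mutant is given in the labels as ahp4 and ahp4-2, and the wild type is the accession Columbia, called Col or Col-0, with 4 BA and 4 mock root libraries of its own. In each group the seedlings were 7 days old, were cut at the hypocotyl and pooled as roots, and met BA or mock in liquid Murashige and Skoog medium. How many seedlings made up a pool, and whether they were cut before or after the treatment, was not settled by the labels. The labels do not say whether the libraries of a group were grown apart, so every p-value reflects the spread among these libraries, which may be technical alone. For ahp4 root mock replicate 1 the labels disagree, with ahp4 and mock in the title and Col-0 and BA in the characteristics, and it was grouped by its title. The title of ahp4 root BA replicate 2 spells the genotype ap4, while its genotype label is ahp4-2.

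Cytokinins are plant hormones that are sensed in root cells by the histidine kinase receptors AHK2, AHK3 and AHK4. The receptors pass phosphate to the histidine phosphotransfer proteins (AHPs), which carry it to the type-B response regulators in the nucleus, the transcription factors of the pathway. Type-A response regulators are early targets of the type-B factors and dampen the signal, and cytokinins in roots are also known to restrain cell division and to act against auxin in the root meristem and the vascular tissue. AHP4, the gene disrupted in the mutant, encodes an AHP that is scarce in roots.

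AHP4 (AT3G16360) was listed at 0.514, 0, 0 and 0 FPKM in the 4 BA libraries of ahp4 roots, against 0.350, 0.435, 0.347 and 0.381 FPKM in their 4 mock libraries. In Col roots it was listed at 0.538, 0.885, 0.0917 and 0 FPKM under BA and at 1.705, 0.539, 0.901 and 0.879 FPKM under mock. The ahp4 mock values lay under all 4 Col mock values, while the BA values of both genotypes overlapped. All 8 ahp4 values were under the minimum level for testing, and the gene overlaps another annotated gene, so they are a weak check of the mutant label. The files held values that correspond to 9325313 to 13424778 reads per library in these 8 libraries, and 18177 to 18488 features per library reached 1 FPKM. The summed level of the 10 type-A response regulators was 640, 686, 743 and 662 FPKM in the BA libraries, against 163, 256, 204 and 150.1 FPKM in the mock libraries. The groups did not overlap, and mock replicate 1, whose labels disagree, had the second lowest sum of the 8. The summed level of 24 shoot markers was 517, 664, 444 and 542 FPKM in the BA libraries, against 275, 773, 305 and 288 FPKM in the mock libraries. Mock replicate 2 was the highest of the 8 for the shoot markers, the other 3 mock libraries were the lowest, and the lowest of the 14 shoot libraries of the series had 103974 FPKM. Mock replicate 2 also stood apart in 22 markers of the endodermis and of suberin, a root barrier polymer, with 1464 FPKM against 628 to 754 in the other mock libraries and 705 to 1302 in the BA libraries. In such pooled tissue, more cells of a type and more RNA per cell cannot be told apart. Many results are given below with and without mock replicates 1 or 2, while some counts that change without them are given with all libraries only.

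**Figure D1:**
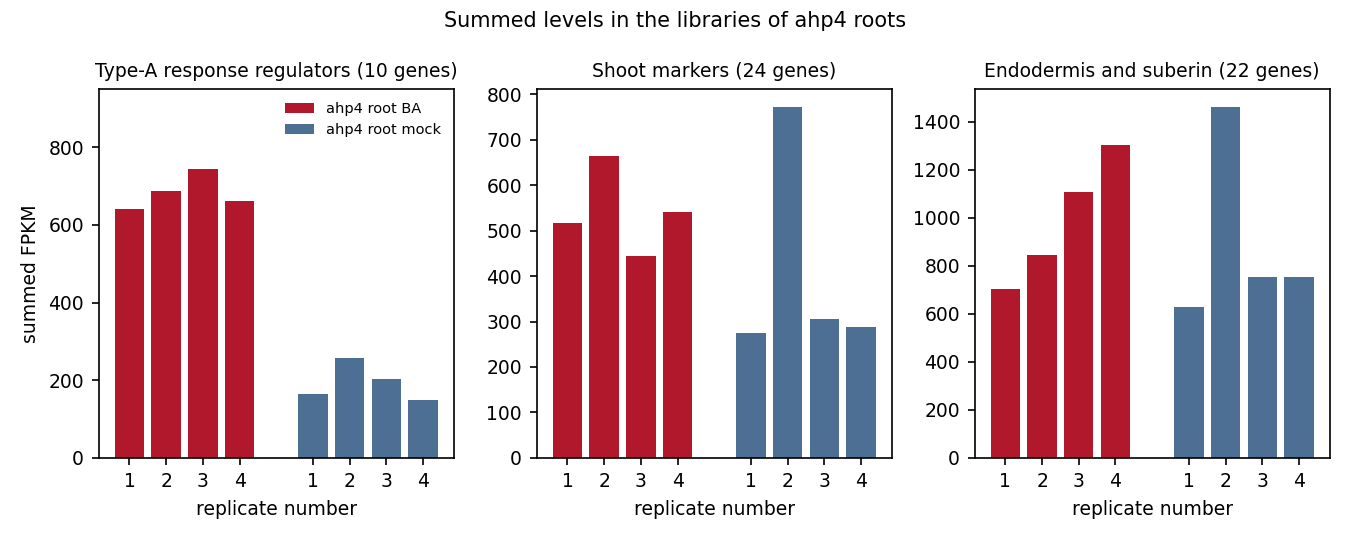
Bars give the summed FPKM of the 10 type-A response regulators, of 24 shoot markers and of 22 markers of endodermis and suberin in each library of ahp4 roots, with BA left of mock and the replicate number on the x axis. The type-A sums of the 4 BA libraries (640 to 743 FPKM) all lie above those of the 4 mock libraries (150.1 to 256 FPKM), whereas mock replicate 2 is the highest library in the other 2 panels.

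BA changed the level of 4011 of the 18909 genes tested in ahp4 roots, by limma on log2(FPKM + 1) over the 16 root libraries with an adjusted p under 0.05, which is what "called" means throughout. Of these, 2225 rose (11.8% of all genes tested) and 1786 fell (9.45%). The counts given below for lists and families are to be read beside these shares. Of the called genes, 1601 moved by less than 0.5 on the log2 scale, 461 rose by 1 or more and 254 fell by 1 or more. Changes of 2 or more were found for 49 genes that rose and 13 that fell, and the median change over all genes tested was -0.0098. The values of the 4 BA libraries and of the 4 mock libraries did not overlap for 4422 genes (23.4% of those tested), and 3301 of these were called. With mock replicate 1 left out 1794 genes rose and 1518 fell, with mock replicate 2 left out 2464 rose and 1759 fell, and with both left out 1800 rose and 1169 fell. The genes nearest the threshold were AT4G02450 (-0.21 ± 0.07, SE) and CRK26 (-0.47 ± 0.16) just inside it, and SLK1 (0.35 ± 0.12) and AT1G64370 (-0.46 ± 0.16) just outside. Log2 changes are given with standard errors here and below, are BA minus mock, and understate the change of genes near 1 FPKM.

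On the log2(FPKM + 1) scale the largest increase of a protein-coding gene with a symbol was that of YLS9. This is an NDR1/HIN1-like gene linked to senescence and defence. The scale understates genes with low mock values such as ARR15 and ARR17. Across all settings of the fit their highest changes were 4.21 and 4.17, against 3.34 for YLS9. YLS9 had 59.0, 66.2, 104.8 and 88.7 FPKM in the BA libraries, against 6.42, 8.02, 7.54 and 8.45 FPKM in the mock libraries. The lowest BA library was far above the highest mock library, and the change was 3.198 ± 0.23 (limma adjusted p = 1.65e-07). ST4B, a sulfotransferase gene, had 231, 283, 356 and 381 FPKM in the BA libraries, against 36.0, 52.9, 53.9 and 45.6 FPKM in the mock libraries, with a change of 2.69 ± 0.44. GH3.3, whose enzyme joins auxin to amino acids, had 33.0, 36.4, 37.9 and 34.6 FPKM in the BA libraries, against 4.80, 4.74, 4.69 and 5.58 FPKM in the mock libraries, and UGT74E2, whose enzyme puts glucose on the auxin indole-3-butyric acid, had 23.6, 36.8, 38.5 and 19.9 FPKM in the BA libraries, against 4.02, 4.84, 3.11 and 2.19 FPKM in the mock libraries. For both genes each BA library lay above each mock library, and their changes were 2.62 ± 0.22 and 2.74 ± 0.24. AT1G06123, which is annotated as an RNA with no protein product, has no known role and was named after its value was seen, had 26.2, 18.1, 18.6 and 36.4 FPKM in the BA libraries, against 0.785, 1.95, 1.56 and 2.14 FPKM in the mock libraries. Its change of 3.28 ± 0.28 was above that of any gene with a symbol on the log2(FPKM + 1) scale. PMAT1, a malonyltransferase gene for phenolic glucosides, changed by 2.56 ± 0.27, and the late embryogenesis abundant genes LEA7 and LEA4-5, whose proteins protect drying cells, changed by 2.55 ± 0.34 and 2.46 ± 0.42, with LEA7 overlapping another annotated gene. LBD3, a factor that marks cytokinin responses in the vascular tissue, had 45.6, 66.0, 52.9 and 61.0 FPKM in the BA libraries, against 8.04, 17.55, 7.88 and 8.54 FPKM in the mock libraries, a change of 2.38 ± 0.22.

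Among the genes that fell, UMAMIT17, of a family of amino acid exporters, had the largest change with a symbol on the log2(FPKM + 1) scale. The scale understates falls to low values, such as those of TPS13 and ORA59. Across all settings of the fit their lowest changes were -3.28 and -3.18, against -2.58 for UMAMIT17. UMAMIT17 had 7.39, 6.89, 9.80 and 5.64 FPKM in the BA libraries, against 46.3, 33.4, 55.8 and 42.7 FPKM in the mock libraries. The highest BA library lay far under the lowest mock library, and the change was -2.43 ± 0.17 (limma adjusted p = 1.52e-07). AT3G26610, annotated as a pectin lyase-like protein and named after its value was seen, had 1.18, 0.974, 1.33 and 1.40 FPKM in the BA libraries, against 13.3, 9.80, 12.8 and 13.1 FPKM in the mock libraries (change -2.57 ± 0.15). MYB28, a main activator of the genes for aliphatic glucosinolates, the sulfur-rich defence compounds of this plant family, had 2.15, 2.91, 1.43 and 2.497 FPKM in the BA libraries, against 17.1, 10.4, 14.5 and 16.6 FPKM in the mock libraries. TPS13, a terpene synthase gene, had 1.33, 0.355, 0.334 and 0.345 FPKM in the BA libraries, against 6.91, 3.13, 5.95 and 8.02 FPKM in the mock libraries. In both cases the groups were apart, with changes of -2.27 ± 0.18 and -2.12 ± 0.27. TPS13 overlaps another annotated gene, so its reads are uncertain. MYB27 (-2.25 ± 0.24), a MYB-type factor, the class III peroxidase gene Prx37 (-2.06 ± 0.17), the expansin gene EXPA17 (-1.97 ± 0.19), the kinase gene PPCK2 (-1.90 ± 0.21) and the AT-hook factor GIK (-1.88 ± 0.16) were also among the steepest falls.

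All 10 type-A response regulators rose in BA-treated ahp4 roots, with a median change of 1.82 (the median over all genes tested was -0.0098). All 10 were called without mock replicate 1, without mock replicate 2 and without both. ARR5 (AT3G48100) had 168, 166, 203 and 169.6 FPKM in the BA libraries, against 21.4, 36.5, 29.99 and 13.7 FPKM in the mock libraries. ARR15 (AT1G74890) had 6.71, 9.32, 6.76 and 7.23 FPKM in the BA libraries, against 0.304, 0.303, 0.528 and 0.166 FPKM in the mock libraries. ARR7 (AT1G19050) had 136, 146, 118 and 107 FPKM in the BA libraries, against 23.5, 28.3, 24.5 and 13.3 FPKM in the mock libraries. These are the 3 members with the largest changes on the log2(FPKM + 1) scale, at 2.83 ± 0.27, 2.68 ± 0.15 and 2.49 ± 0.23. Each was low in all mock libraries and high in all BA libraries. ARR15 was near the limit of testing under mock, and its level under BA stayed far below that of ARR5 and ARR7. ARR16 (2.39 ± 0.17) and ARR17 (1.92 ± 0.22) were likewise low, with 2.08, 2.92, 4.07 and 4.31 FPKM in the BA libraries, against 0.133, 0, 0.395 and 0 FPKM in the mock libraries for ARR17. ARR4, the member with the highest mock level, had 149.6, 179, 198 and 183 FPKM in the BA libraries, against 49.4, 89.1, 67.5 and 54.6 FPKM in the mock libraries, a change of 1.46 ± 0.20. ARR3 changed by 1.72 ± 0.36, ARR6 by 1.497 ± 0.24 and ARR9 by 1.03 ± 0.16. ARR8 (AT2G41310) had the smallest change, 0.78 ± 0.13, with 48.3, 49.9, 64.2 and 57.3 FPKM in the BA libraries, against 27.3, 41.1, 30.3 and 28.7 FPKM in the mock libraries. Even so its BA libraries lay above its mock libraries. ARR6, ARR8 and ARR9 overlap another annotated gene, and, with the use of strand not given in the sources used here, are uncertain to that extent.

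**Figure D2:**
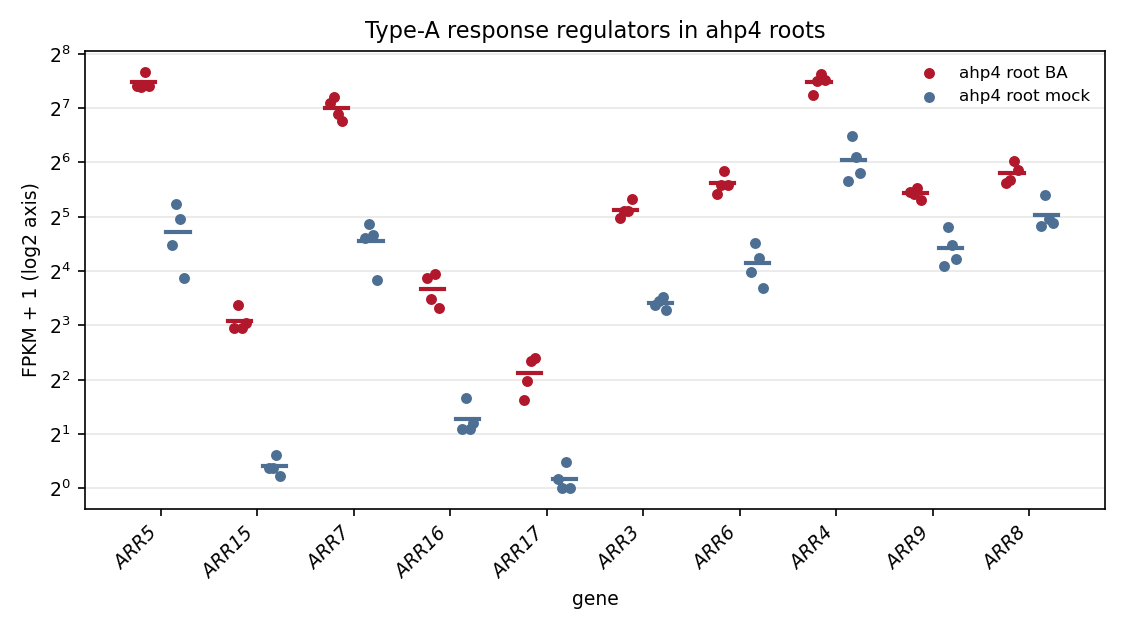
Each point is the FPKM + 1 of a type-A response regulator in 1 library of ahp4 roots, on a log2 axis. The 4 BA libraries lie left of the 4 mock libraries, and a bar marks the arithmetic mean of their FPKM + 1. The genes run from the largest to the smallest rise on this scale, and for every gene the BA points lie above the mock points.

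The sequences just before these genes are shown because type-B response regulators are known to bind sites with the core AGATT, and because the type-A genes rose together by different amounts. The 300 bases before the annotated gene start are shown for part of the family. These are the 3 members with the largest change on the log2(FPKM + 1) scale and the member with the smallest. The windows are given 5′ to 3′ on the gene's strand from the RefSeq assembly TAIR10.1. AGATT, or AATCT where it lies on the other strand, is in capitals.
ARR5 (chr3:17760951-17761250, minus strand): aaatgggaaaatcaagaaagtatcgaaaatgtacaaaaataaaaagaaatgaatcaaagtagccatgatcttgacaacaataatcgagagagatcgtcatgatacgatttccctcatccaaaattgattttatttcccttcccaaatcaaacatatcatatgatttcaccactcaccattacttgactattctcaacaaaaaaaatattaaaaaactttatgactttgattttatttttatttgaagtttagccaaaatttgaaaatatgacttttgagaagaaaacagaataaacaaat
ARR15 (chr1:28133026-28133325, minus strand): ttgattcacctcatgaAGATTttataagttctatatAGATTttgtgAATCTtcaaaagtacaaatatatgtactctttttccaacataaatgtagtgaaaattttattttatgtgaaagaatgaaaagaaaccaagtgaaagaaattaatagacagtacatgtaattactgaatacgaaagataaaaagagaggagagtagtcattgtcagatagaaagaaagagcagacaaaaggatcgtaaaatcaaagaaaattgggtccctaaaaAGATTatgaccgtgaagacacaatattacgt
ARR7 (chr1:6579315-6579614, minus strand): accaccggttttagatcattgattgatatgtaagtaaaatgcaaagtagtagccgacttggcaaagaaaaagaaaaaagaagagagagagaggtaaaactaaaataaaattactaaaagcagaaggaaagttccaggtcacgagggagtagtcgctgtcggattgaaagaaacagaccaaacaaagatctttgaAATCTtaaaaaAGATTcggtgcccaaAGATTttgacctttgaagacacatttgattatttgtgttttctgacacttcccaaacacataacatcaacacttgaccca
ARR8 (chr2:17221540-17221839, plus strand): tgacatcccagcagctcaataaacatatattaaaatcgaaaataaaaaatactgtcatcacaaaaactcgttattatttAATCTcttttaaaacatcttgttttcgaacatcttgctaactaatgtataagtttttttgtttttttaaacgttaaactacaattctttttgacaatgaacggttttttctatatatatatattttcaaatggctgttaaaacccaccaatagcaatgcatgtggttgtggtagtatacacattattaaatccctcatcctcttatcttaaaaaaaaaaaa
The window of ARR15 held 4 such matches, that of ARR7 held 3, that of ARR8 held 1 and that of ARR5 held 0. ARR5 had the largest change of the family on the log2(FPKM + 1) scale, which understates low genes such as ARR15 and ARR17. Across all settings of the fit the highest change was 4.21 for ARR15 and 4.17 for ARR17, against 3.05 for ARR5. Of the other members, ARR6 had 3 matches, ARR16 and ARR9 had 2, ARR3 had 1, and ARR17 and ARR4 had 0. In all, 7 of the 10 windows held the motif (70.0%), against 70.7% of the 33054 windows of all nuclear genes, with a mean of 1.6 matches against 1.27. Windows with the motif made up 71.4% of the genes that rose in ahp4 roots and 66.5% of those that fell. A match is a run of 5 letters and not a measured binding site, and sites outside the window were not searched.

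Of the receptors, AHK4, the main cytokinin receptor of roots, rose and AHK2 fell. AHK4 had 32.3, 31.6, 35.7 and 33.7 FPKM in the BA libraries, against 15.9, 20.1, 19.5 and 17.1 FPKM in the mock libraries. AHK2 had 6.45, 4.34, 4.27 and 5.18 FPKM in the BA libraries, against 8.77, 10.14, 9.06 and 8.51 FPKM in the mock libraries. The libraries were apart in both genes, with changes of 0.84 ± 0.10 (limma adjusted p = 1.5e-05) for AHK4 and -0.75 ± 0.13 (limma adjusted p = 0.000712) for AHK2. AHK3 was not called (0.31 ± 0.16, limma adjusted p = 0.172). Of the phosphotransfer genes tested, AHP1 rose by 0.54 ± 0.11, with 148 ± 16.7 FPKM under BA and 101 ± 12.8 FPKM under mock (SD, n = 4 each). AHP3 was called at 0.30 ± 0.10 with a limma adjusted p of 0.0378. It was not called without BA replicate 3, BA replicate 4, mock replicate 3 or mock replicate 4 (limma adjusted p up to 0.123). Nor was it called with a replicate block, after quantile normalization, with the 8 ahp4 libraries alone or with the shoot marker covariate. AHP2 (0.10 ± 0.13) and AHP5 (-0.19 ± 0.11) were not called, and neither was AHP6, which lacks the phosphate-accepting residue and inhibits the pathway, with 1.65 ± 0.520 FPKM under BA and 1.53 ± 0.822 FPKM under mock (SD, n = 4 each). Of the 5 type-B response regulators tested, ARR12 rose, with 31.7, 28.1, 31.9 and 30.5 FPKM in the BA libraries, against 18, 18.4, 19.9 and 16.2 FPKM in the mock libraries, a change of 0.72 ± 0.09. ARR1 stayed at 25.4 ± 1.32 FPKM under BA and 25.5 ± 2.25 FPKM under mock (SD, n = 4 each), ARR2 (0.16 ± 0.10) was not called, and ARR10 (0.28 ± 0.11) and ARR11 (-0.60 ± 0.22) were not called with all libraries. ARR10 was called as higher without BA replicate 4 and with library weights. ARR11 was called as lower without BA replicate 1, BA replicate 3 or mock replicate 2. ARR11 was also called as lower with the replicate block, with all 30 libraries in 1 fit and with library weights. The cytokinin response factors are AP2-type transcription factors, several of which respond to cytokinin, and 5 of the 10 tested rose while 0 fell. CRF7 (0.86 ± 0.14), CRF6 (0.45 ± 0.08) and CRF4 (0.46 ± 0.09) were the steadier calls, whereas without BA replicate 2, BA replicate 4 or mock replicate 3 the count was 3, with CRF5 (0.56 ± 0.17) and CRF11 (0.55 ± 0.16) lost, and CRF5 was also lost without BA replicate 3, mock replicate 1 or mock replicate 4. CRF2 was called as lower without mock replicate 2. Of the 3 cytokinin transport genes tested, 0 were called, among them ABCG14, which loads cytokinins into the xylem, at 31.4 ± 2.63 FPKM under BA and 30.5 ± 2.35 FPKM under mock (SD, n = 4 each). AHP3, ARR1, CRF4 and ABCG14 overlap other annotated genes.

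The synthesis genes IPT3 and IPT5 fell, while most tested genes of cytokinin breakdown and glucosylation rose. IPT3 and IPT5 encode the isopentenyltransferases that begin cytokinin synthesis in roots. IPT5 had 1.05, 0.894, 1.28 and 0.569 FPKM in the BA libraries, against 8.07, 7.95, 7.26 and 5.33 FPKM in the mock libraries. IPT3 had 1.01, 1.34, 0.730 and 1.41 FPKM in the BA libraries, against 6.74, 5.34, 5.52 and 7.41 FPKM in the mock libraries. Every BA value was under 2 FPKM and every mock value above 5, with changes of -2.06 ± 0.17 (limma adjusted p = 4.87e-07) for IPT5 and -1.77 ± 0.17 (limma adjusted p = 1.48e-06) for IPT3. IPT7 was under the minimum for testing, at 0, 0, 0.155 and 0.207 FPKM in the BA libraries, against 0.782, 1.04, 0.984 and 0.740 FPKM in the mock libraries. IPT2 and IPT9, which modify tRNA, were not called, with 4.48 ± 0.877 FPKM under BA and 4.61 ± 0.220 FPKM under mock (SD, n = 4 each) for IPT2. CYP735A2, whose enzyme turns isopentenyladenine-type into trans-zeatin-type cytokinins, rose instead. CYP735A2 had 59.3, 67.5, 45.5 and 47.9 FPKM in the BA libraries, against 9.17, 8.93, 11.5 and 7.63 FPKM in the mock libraries, a change of 2.44 ± 0.15 (limma adjusted p = 3.14e-08), while its relative CYP735A1 was not called. The LOG genes, whose enzymes release the active cytokinin bases, were split. LOG1 had 1.48, 0.713, 1.01 and 0.963 FPKM in the BA libraries, against 3.45, 3.095, 5.64 and 5.94 FPKM in the mock libraries (-1.41 ± 0.20). LOG2 had 1.38, 1.53, 1.82 and 2.31 FPKM in the BA libraries, against 0.0486, 0.774, 0.145 and 0.265 FPKM in the mock libraries (1.096 ± 0.20). LOG7, the LOG gene with the highest level here, was not called with all libraries (0.45 ± 0.17), and was called as higher without mock replicate 2.

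The cytokinin oxidases degrade cytokinins, and 4 of the 6 tested rose while 0 fell. CKX3 had 7.74, 8.14, 4.99 and 9.59 FPKM in the BA libraries, against 1.804, 2.02, 1.93 and 1.48 FPKM in the mock libraries. CKX4 had 30.1, 33.2, 39.4 and 37.6 FPKM in the BA libraries, against 9.09, 17.2, 17.2 and 12.5 FPKM in the mock libraries. CKX4 was the oxidase gene with the highest level in these roots, and in both genes the BA libraries were above the mock libraries. Their changes were 1.59 ± 0.25 and 1.301 ± 0.16, and those of CKX5 and CKX2 were 1.43 ± 0.13 and 1.13 ± 0.21. CKX1, CKX2 and CKX5 overlap other annotated genes. CKX1 (0.27 ± 0.22) was not called, and neither was CKX7, with 0.966 ± 0.461 FPKM under BA and 0.949 ± 0.123 FPKM under mock (SD, n = 4 each). The 3 glucosyltransferase genes tested all rose. UGT85A1, which acts on the side chain of zeatin, had 9.50, 10.2, 6.33 and 9.68 FPKM in the BA libraries, against 4.21, 4.72, 3.82 and 5.48 FPKM in the mock libraries, a change of 0.83 ± 0.15, and UGT76C1 and UGT76C2, which act on the ring, changed by 0.62 ± 0.13 and 0.52 ± 0.12. All of these calls of synthesis, breakdown and glucosylation genes held without mock replicate 1, without mock replicate 2 and without both.

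**Figure D3:**
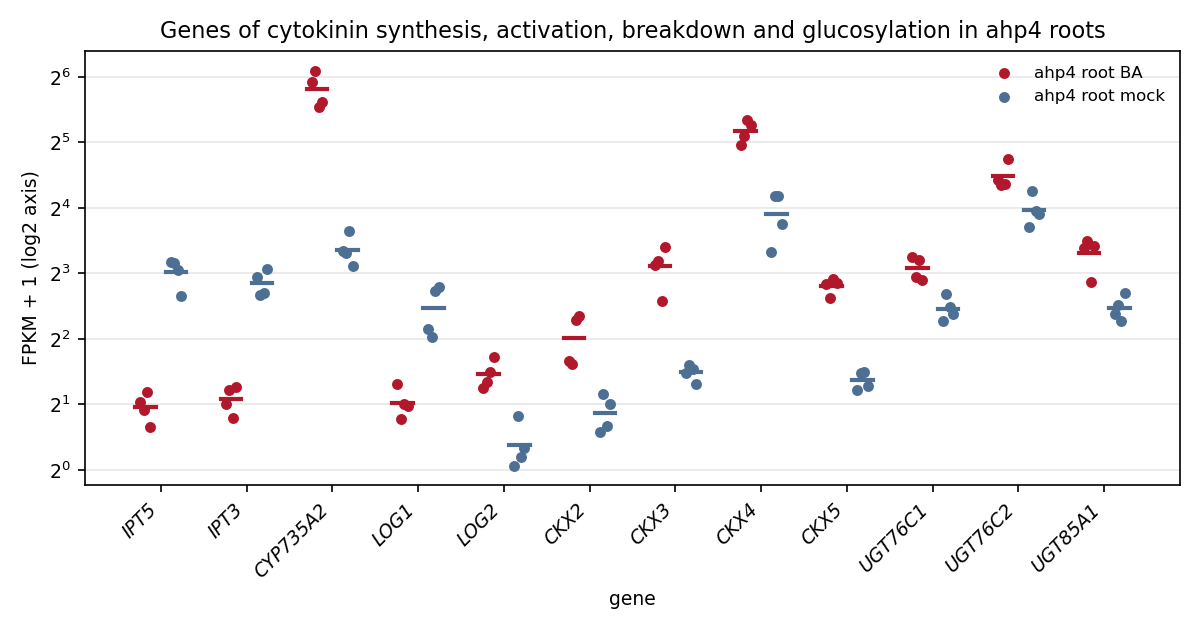
Points give the FPKM + 1 of genes of cytokinin synthesis (IPT), hydroxylation (CYP735A2), activation (LOG), breakdown (CKX) and glucosylation (UGT) in ahp4 roots. The 4 BA libraries are left and the 4 mock libraries right, on a log2 axis, with a bar at the arithmetic mean of their FPKM + 1. BA points lie under mock points for IPT5, IPT3 and LOG1 and above them for the other 9 genes.

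Auxin genes moved in the same roots. Of the 24 Aux/IAA genes tested, which encode auxin-induced repressors of the auxin response, 11 rose and 1 fell (median 0.29), and 11 or 12 rose with any library left out and 10 without mock replicates 1 and 2. The fall, that of IAA8, was lost without BA replicate 1, mock replicate 3 or both doubtful mock libraries, and IAA8 was named after its value was seen. IAA3, also known as SHY2 and a direct target of the type-B factors in the root transition zone, had 38.7, 39.9, 46.9 and 36.4 FPKM in the BA libraries, against 7.68, 14.5, 11.8 and 8.45 FPKM in the mock libraries. IAA17 had 203, 198, 222 and 212 FPKM in the BA libraries, against 73.7, 90.7, 79.0 and 74.9 FPKM in the mock libraries. Each BA library was above each mock library for both, with changes of 1.87 ± 0.19 (limma adjusted p = 3.06e-06) for IAA3 and 1.39 ± 0.09 (limma adjusted p = 8.34e-08) for IAA17. IAA5 and IAA1 changed by 1.55 ± 0.18 and 1.15 ± 0.13. IAA3, IAA5 and ABCB4 overlap other annotated genes. Of the 8 GH3 genes tested 5 rose and 1 fell (median 0.94), with GH3.6 at 1.22 ± 0.14, GH3.2 at 1.15 ± 0.23 and GH3.5 at 0.89 ± 0.17 beside GH3.3, and GH3.17 (higher) and DFL2 (lower, but not called without mock replicates 1 and 2) were named after their values were seen. Of the 12 auxin carriers, the efflux carrier gene PIN4 rose, with 14.5, 14.5, 14.1 and 16.6 FPKM in the BA libraries, against 6.36, 5.87, 5.51 and 6.27 FPKM in the mock libraries, as did the transporter gene ABCB4 (0.92 ± 0.14). PIN2, the efflux carrier of the epidermis, fell by 0.44 on the log2 scale and AUX1, the main influx carrier of roots, fell by 0.37. AUX1 had 36.2, 35.8, 35.2 and 36.3 FPKM in the BA libraries, against 46.1, 45.03, 50.3 and 45.2 FPKM in the mock libraries, so a small change stood apart from the spread. Of the 7 auxin synthesis genes tested 0 were called by limma, against 3 lower at an unadjusted p under 0.05, and 2 were called as lower without mock replicate 2. The family of SAUR genes, early auxin-responsive genes, had 10 of 34 members higher and 2 lower, but 5 or 6 higher without BA replicate 4, mock replicate 1, mock replicate 4 or mock replicates 1 and 2 together. AT2G46690, a SAUR-like gene, went the other way and fell steeply, with 24.3, 29.1, 31.5 and 20.7 FPKM in the BA libraries, against 84.7, 112, 87.7 and 86.6 FPKM in the mock libraries.

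Most of the abscisic acid genes tested rose. Abscisic acid is the hormone of water deficit, and of the 27 genes of its synthesis, signalling and targets that were tested 17 rose and 0 fell, with a median of 0.90 (15 without mock replicates 1 and 2). RD26, a NAC factor induced by drying, had 91.2, 87.1, 126 and 76.7 FPKM in the BA libraries, against 23.5, 35.9, 24.7 and 24.6 FPKM in the mock libraries. ABF3, a bZIP factor that activates abscisic acid targets, had 51.2, 51.6, 79.8 and 42.5 FPKM in the BA libraries, against 21.9, 25.1, 18.9 and 20.1 FPKM in the mock libraries. The highest mock library lay under the lowest BA library for both genes, with changes of 1.77 ± 0.16 (limma adjusted p = 8.55e-07) for RD26 and 1.31 ± 0.17 (limma adjusted p = 3.59e-05) for ABF3, which overlaps another annotated gene. Receptor genes of this hormone were split: PYL4 had 47.5, 50.9, 36.8 and 76.8 FPKM in the BA libraries, against 100.5, 121, 118 and 103 FPKM in the mock libraries and PYL5 had 36.5, 36.3, 28.4 and 65.1 FPKM in the BA libraries, against 84.6, 105.4, 88.2 and 76.2 FPKM in the mock libraries, while PYL7 rose by 1.01 ± 0.18. The changes of PYL4 and PYL5 were -1.09 ± 0.18 and -1.13 ± 0.19, and PYL7 overlaps another annotated gene. MYB41, a factor of suberin formation under stress, rose by 1.66 ± 0.32 and HSFA6B, a heat shock factor of the abscisic acid response, by 1.88 ± 0.37. LEA4-5 varied most among these genes, from 10.4 to 45.1 FPKM across the BA libraries and from 1.17 to 7.05 FPKM across the mock libraries.

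Genes of ethylene, gibberellin and the other hormones moved in both directions. Ethylene is made from ACC, and ACS7, an ACC synthase gene, had 15.1, 14.3, 22.02 and 26.9 FPKM in the BA libraries, against 2.62, 4.29, 3.61 and 3.44 FPKM in the mock libraries (2.16 ± 0.21), whereas ACO5, an ACC oxidase gene for the last step, had 95.5, 67.8, 70.9 and 83.7 FPKM in the BA libraries, against 210.2, 250.2, 209 and 169 FPKM in the mock libraries (-1.39 ± 0.13). In all, 3 of 11 ethylene synthesis genes rose and 3 fell. The 11 include ACO3 (AT2G05710), an aconitase gene that was matched by its symbol and was not called. The receptor gene ETR2, itself an ethylene target, had 5.77, 10.2, 5.19 and 9.65 FPKM in the BA libraries, against 18.1, 20.2, 15.99 and 14.9 FPKM in the mock libraries (-1.12 ± 0.19), and CTR1, the kinase that holds the pathway off, fell by 0.51 on the log2 scale. Of the 12 ethylene receptor and signalling genes tested 2 rose and 4 fell, or 2 fell without BA replicate 3 or mock replicate 3, and the rises were those of EBF1 (0.43 ± 0.08) and EBF2, whose F-box proteins mark the main ethylene factors for breakdown. The ethylene response factor genes ERF2 (-1.29 ± 0.26), ERF15 (-1.26 ± 0.19) and ORA59 (-1.85 ± 0.18), which also act in jasmonate defence, fell. ORA59 had 0.222, 0.633, 0.149 and 0.599 FPKM in the BA libraries, against 5.44, 3.91, 3.67 and 3.21 FPKM in the mock libraries, apart in all libraries. GA3OX1, for the last step to active gibberellin, had 5.81, 6.84, 6.92 and 8.54 FPKM in the BA libraries, against 14.6, 16.8, 17.2 and 15.99 FPKM in the mock libraries (-1.10 ± 0.13), and GA2OX2, for gibberellin breakdown, rose by 1.24 ± 0.17. Of the brassinosteroid genes, DWF4, for a rate-limiting step of synthesis, rose by 0.80 ± 0.12, DET2 by 0.62 ± 0.12 and BEN1, linked to brassinosteroid breakdown, by 0.71 ± 0.12. The strigolactone and karrikin genes MAX2 (0.94 ± 0.16) and KAI2 (0.95 ± 0.17) rose and MAX1 (-0.51 ± 0.11) fell, but not without mock replicates 1 and 2, where it was not called. WRKY70, a factor of salicylate defence, rose by 1.32 ± 0.25 and EDS5, a salicylate transporter gene, by 0.77 ± 0.15, while PAD4 fell by 0.42. ACO5, DET2, MAX1 and EDS5 overlap other annotated genes.

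Among genes of nutrient uptake, the called sulfate and phosphate genes all fell, while called nitrate and iron genes included rises and falls. NRT1.1, the nitrate transporter and sensor, had 57.6, 68.7, 75.3 and 79.8 FPKM in the BA libraries, against 160.3, 312, 227 and 182 FPKM in the mock libraries. NRT2.1, a high-affinity nitrate transporter, had 4.84, 5.74, 11.5 and 12.2 FPKM in the BA libraries, against 16.3, 30.1, 23.8 and 21.5 FPKM in the mock libraries. NIA1, a nitrate reductase gene, had 45.2, 70.1, 55.5 and 56.3 FPKM in the BA libraries, against 17.7, 14.3, 16.8 and 23.5 FPKM in the mock libraries. Both transporter genes were lower under BA in all libraries and the reductase gene was higher, with changes of -1.60 ± 0.18 (limma adjusted p = 1.27e-05), -1.38 ± 0.29 (limma adjusted p = 0.00267) and 1.61 ± 0.19 (limma adjusted p = 2e-05) in that order, and NIA2 rose by 0.88 ± 0.16. Of the 22 nitrate genes tested 4 rose and 2 fell, shares near the 11.8% and 9.45% over all genes, and HRS1 and NIR1, which rose, were named after their values were seen. Of the 16 sulfate genes 0 rose and 7 fell (median -0.39), with 5 lower without mock replicates 1 and 2 and 1 higher without any one of BA replicate 3 and mock replicates 2 and 3. APR1, the key enzyme of sulfate reduction, had 9.27, 13.3, 10.8 and 9.11 FPKM in the BA libraries, against 41.1, 18.6, 25.3 and 22.2 FPKM in the mock libraries (-1.21 ± 0.26). The sulfate transporter genes SULTR1;1 and SULTR2;2 changed by -1.08 ± 0.26 and -0.91 ± 0.14. Of the 10 phosphate genes 0 rose and 4 fell (median -0.60), with 6 lower without mock replicate 1 and 3 lower without mock replicates 1 and 2. PHO1, which loads phosphate into the xylem, had 45.1, 36.0, 44.2 and 26.4 FPKM in the BA libraries, against 88.2, 59.0, 83.8 and 75.2 FPKM in the mock libraries. PHO2, which targets phosphate transporters for breakdown, changed by -0.95 ± 0.16 and SPX1, a phosphate sensor gene, by -1.002 ± 0.26. For SPX1 mock replicate 2 was the outlying library, at 26.5 FPKM against 7.79 to 10.7 in the other mock libraries. FIT, the master factor of iron uptake, had 8.45, 8.41, 16.3 and 13.2 FPKM in the BA libraries, against 32.0, 42.0, 26.9 and 30.7 FPKM in the mock libraries (-1.46 ± 0.21), whereas BHLH101 (1.16 ± 0.28), a factor of iron shortage, rose. Of 20 iron genes 4 rose and 1 fell, but 2 rose without mock replicate 4 and 8 without mock replicates 1 and 2. APR1, SULTR2;2 and BHLH101 overlap other annotated genes.

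Of the 34 amino acid transporter genes of the UMAMIT family tested, 15 fell and 1 rose, with a median of -0.34 (12 lower without mock replicates 1 and 2). Beside UMAMIT17, UMAMIT27 had 4.33, 2.69, 2.72 and 2.82 FPKM in the BA libraries, against 12.1, 9.02, 12.2 and 12.8 FPKM in the mock libraries. UMAMIT31 had 2.48, 2.14, 1.98 and 1.68 FPKM in the BA libraries, against 8.88, 6.24, 9.04 and 7.87 FPKM in the mock libraries. UMAMIT12 had 12.1, 10.4, 12.4 and 8.96 FPKM in the BA libraries, against 25.9, 26.3, 29.2 and 23.6 FPKM in the mock libraries. Each gene was lower in every BA library, with changes of -1.60 ± 0.17, -1.55 ± 0.15 and -1.19 ± 0.12 in that order. SUC1, a sucrose transporter gene, fell by 0.90 on the log2 scale, and PTR3, a peptide transporter gene, by 1.24. Of the 19 aquaporin genes 6 fell and 3 rose, but 1 rose without BA replicate 2, mock replicate 1 or mock replicate 3. The water channel gene PIP1;1 had 183, 194, 291 and 249 FPKM in the BA libraries, against 462, 782, 482 and 467 FPKM in the mock libraries (-1.24 ± 0.18), and mock replicate 2 was its highest library. TIP2;3, a channel of the vacuole membrane, changed by -1.60 ± 0.28 and its relative TIP2;1 by 1.12 ± 0.20 in the other direction. PIP2;3 (-1.12 ± 0.14) is close in sequence to PIP2;2, so their reads may not be fully told apart, and TIP2;1 overlaps another annotated gene.

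Among detoxification genes more rose than fell, beside 11.8% higher and 9.45% lower over all genes tested. Glutathione transferases of the tau class join glutathione to foreign and reactive compounds, and 17 of the 27 tested rose while 3 fell (median 0.92), a count of 17 under every removal of a library. GSTU19, the member with the highest level named here, had 1421, 1638, 1987 and 1594 FPKM in the BA libraries, against 688, 904, 712 and 697 FPKM in the mock libraries. GSTU1 had 146, 161, 184 and 142 FPKM in the BA libraries, against 37.5, 42.0, 41.6 and 35.5 FPKM in the mock libraries. GSTU5 had 43.9, 67.2, 65.2 and 48.9 FPKM in the BA libraries, against 9.68, 10.7, 8.78 and 10.6 FPKM in the mock libraries. All 3 genes were above mock in every BA library, with changes of 1.14 ± 0.13, 1.98 ± 0.11 and 2.37 ± 0.26, and GSTU25 changed by 1.60 ± 0.12. Members of this class lie in tandem and are alike in sequence, so reads may be shared between them. Of the 44 UDP-glycosyltransferases tested 21 rose and 4 fell, though 1 or 2 fell without BA replicate 1, BA replicate 2, mock replicate 2 or mock replicate 4. UGT84A3, for sinapate glucose esters, changed by 2.09 ± 0.22, and UGT73B3 and UGT73B4, neighbours in a stress-induced group, by 1.62 ± 0.17 and 1.65 ± 0.12. Of the 134 cytochrome P450 genes 39 rose and 21 fell, or 37 and 14 without mock replicates 1 and 2. CYP81D11, which responds to foreign compounds, had 138, 116, 146 and 108 FPKM in the BA libraries, against 20.9, 38.3, 26.9 and 24.7 FPKM in the mock libraries (2.18 ± 0.18), and CYP82F1 had 102, 127, 186 and 159 FPKM in the BA libraries, against 18.1, 40.0, 26.7 and 21.96 FPKM in the mock libraries (2.41 ± 0.32). Of 24 ABCG transporters 7 rose and 2 fell, with ABCG34 (1.204 ± 0.15) and ABCG30 (1.31 ± 0.14) higher and ABCG35 (-1.02 ± 0.09) lower. CYP81D11, UGT73B3, UGT73B4 and ABCG30 overlap other annotated genes. ABCG35 had 24.4, 21.8, 22.4 and 24.3 FPKM in the BA libraries, against 45.8, 51.2, 51.7 and 44.2 FPKM in the mock libraries.

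Specialised metabolism was split by pathway, beside 11.8% higher and 9.45% lower over all genes tested. Aliphatic glucosinolate genes had 6 of 15 tested members lower and 0 higher (median -0.50; 4 to 8 with a library left out). With MYB28 fell MAM3 (-0.99 ± 0.20), MAM1 (-0.87 ± 0.21), both for chain elongation, and the transporter gene BAT5 (-1.11 ± 0.25). Mock replicate 2 was the lowest mock library for all 4 of these genes, for example 18.5 FPKM against 33.1 to 37.0 for MAM1. Indole glucosinolate genes had 4 of 14 higher and 3 lower, with the modifying enzyme genes CYP81F2 at 16.9, 17.2, 12.7 and 31.7 FPKM in the BA libraries, against 4.96, 6.88, 5.803 and 5.21 FPKM in the mock libraries (1.55 ± 0.22) and CYP81F4, which overlaps another annotated gene, at 1.21 ± 0.11. Of the 8 triterpene cluster genes tested 6 rose and 1 fell (median 0.95), and 4 rose without mock replicates 1 and 2. THAS1, the thalianol synthase of a root gene cluster, had 224, 262, 380.4 and 278 FPKM in the BA libraries, against 91.6, 146, 133 and 146 FPKM in the mock libraries (1.14 ± 0.20). CYP705A12 and CYP71A16, of the cluster for marneral, changed by 1.49 ± 0.26 and 1.78 ± 0.27, and PEN1, for another triterpene, fell by 0.50 on the log2 scale.

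**Figure D4:**
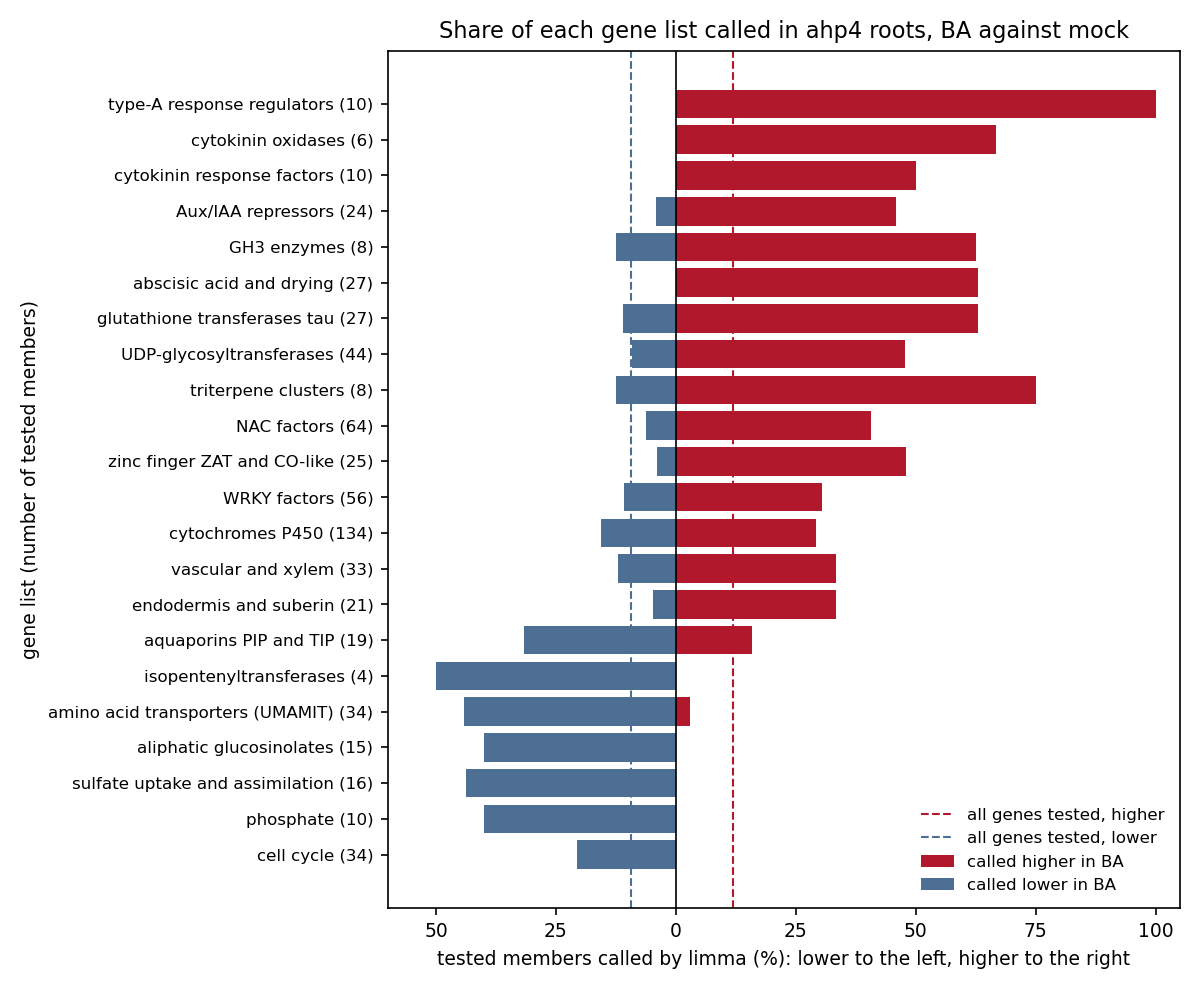
Bars give, for each gene list (number of tested members in brackets), the percent of members that rose (right, red) and that fell (left, blue) in BA against mock ahp4 roots. Dashed lines mark the shares over all 18909 genes tested, 11.8% higher and 9.45% lower. All 10 type-A response regulators rose, and the UMAMIT, sulfate, phosphate and aliphatic glucosinolate lists had 0 or 1 members that rose.

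Transcription factor families differed in balance, while over all genes tested 11.8% rose and 9.45% fell. The shares of WRKY and MYB factors that fell were near that of all genes. NAC factors had 26 of 64 members higher and 4 lower, WRKY factors 17 of 56 higher and 6 lower, and zinc finger factors of the ZAT and CO-like groups 12 of 25 higher and 1 lower, the last not called without any one of BA replicates 2 and 3 and mock replicates 2 to 4. Without mock replicates 1 and 2 the NAC count was 20 higher and 2 lower. ATAF1, a stress-induced NAC factor, had 59.4, 60.5, 65.8 and 44.6 FPKM in the BA libraries, against 21.4, 22.8, 14.7 and 18.8 FPKM in the mock libraries (1.52 ± 0.14). NAC13 changed by 1.51 ± 0.13 and NAC001 by 1.56 ± 0.16, and ATAF1 and NAC13 overlap other annotated genes. WRKY23, an auxin-regulated factor of roots, had 17.64, 21.1, 14.6 and 16.6 FPKM in the BA libraries, against 5.798, 5.34, 5.72 and 6.04 FPKM in the mock libraries (1.45 ± 0.15), and WRKY6 changed by 1.15 ± 0.14. LZF1 (1.54 ± 0.16), a light-regulated zinc finger factor, and COL5 (1.08 ± 0.15) also rose. Of the MYB factors 17 of 72 rose and 8 fell, or 12 and 7 without mock replicates 1 and 2. bZIP3, a factor of low sugar status, had 6.31, 6.02, 5.6 and 5.22 FPKM in the BA libraries, against 19.9, 22.6, 27.0 and 24.6 FPKM in the mock libraries (-1.85 ± 0.15). HB-3, a homeodomain factor, changed by -1.23 ± 0.14.

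Cell cycle genes had 7 of 34 tested members lower and 0 higher (median -0.18), or 5 to 10 lower with a library left out. The shares over all genes tested were 9.45% lower and 11.8% higher. CYCD1;1, a cyclin of the entry into the cycle, had 7.03, 6.49, 8.50 and 5.37 FPKM in the BA libraries, against 12.1, 11.4, 13.0 and 13.9 FPKM in the mock libraries (-0.81 ± 0.12). CYCB1;1, a cyclin of the entry into mitosis, had 3.35, 4.80, 3.33 and 4.71 FPKM in the BA libraries, against 7.14, 4.86, 7.39 and 7.25 FPKM in the mock libraries (-0.60 ± 0.14), and CCS52B, an activator of cyclin breakdown, changed by -0.55 ± 0.10. Of the meristem genes, RGF1, a peptide that maintains root stem cells, had 0.414, 0.739, 0.279 and 0.559 FPKM in the BA libraries, against 3.52, 1.40, 1.54 and 1.08 FPKM in the mock libraries (-0.89 ± 0.21). SCR, a factor of the endodermis and stem cell niche, fell by 0.36 on the log2 scale, though it was not called without mock replicates 1 and 2, and UPB1, which sets the shift from division to elongation, rose by 0.65 ± 0.12. LBD16, a factor of lateral root founding, fell by 0.68. The peptide gene CLE4 had 0.529, 0.141, 0 and 0.428 FPKM in the BA libraries, against 2.56, 1.75, 2.28 and 1.18 FPKM in the mock libraries (-1.20 ± 0.19), and CLE44, the phloem peptide that keeps xylem precursors from maturing, rose by 0.96 ± 0.15. CYCD1;1, CCS52B and CLE44 overlap other annotated genes.

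Cell wall and vascular genes were mixed, beside 11.8% higher and 9.45% lower over all genes tested. EXPA17, an expansin gene of lateral roots and wall loosening, had 2.71, 3.84, 4.14 and 4.33 FPKM in the BA libraries, against 17.64, 20.9, 15.9 and 15.8 FPKM in the mock libraries, and EXPA15 had 107, 177, 122 and 158 FPKM in the BA libraries, against 59.1, 42.6, 57.7 and 62.8 FPKM in the mock libraries. They moved in opposite directions, by -1.97 ± 0.19 and 1.32 ± 0.22. Xyloglucan enzyme genes had 5 of 26 higher and 6 lower, or 8 higher without mock replicate 2, with XTH16 (-1.55 ± 0.16) and XTH26 (-1.85 ± 0.31) lower and XTH22 (1.08 ± 0.20) higher. Of the 33 vascular and xylem genes 11 rose and 4 fell, but the rises were 6 without BA replicate 3 or mock replicate 1, 7 without BA replicate 4 and 4 without mock replicates 1 and 2. REV and CNA, class III homeodomain factors of vascular patterning, fell by 0.62 and 0.40 on the log2 scale, CNA not being called without mock replicates 1 and 2, and MYB46, a switch for secondary walls, rose by 0.49 ± 0.10 but was not called with all 30 libraries in 1 fit. Of the 21 endodermis and suberin genes tested 7 rose and 1 fell (0 fell without BA replicate 1 or 2), with 11 higher and 0 lower without mock replicate 2, whose summed level of this list was the highest of the 8 libraries. ASFT, which puts ferulate into suberin, had 97.2, 127, 187 and 148 FPKM in the BA libraries, against 45.5, 95.8, 41.0 and 46.0 FPKM in the mock libraries (1.32 ± 0.24), and CYP86B1, for very long chain suberin acids, changed by 1.68 ± 0.27. For ASFT mock replicate 2 lay far above the other mock libraries, close to the lowest BA library. REV and ASFT overlap other annotated genes. In the epidermis RSL4, the factor of root hair growth, rose by 1.18 ± 0.24, and WER (-0.79 ± 0.17) and EGL3 (-0.52 ± 0.12), of the cell fate complex, fell.

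Greening genes and shoot markers were read beside the shoot marker sums given above. HEMA1, the first committed enzyme of chlorophyll synthesis, had 53.4, 41.8, 48.6 and 43.4 FPKM in the BA libraries, against 26.1, 31.5, 26.8 and 26.3 FPKM in the mock libraries (0.73 ± 0.11). All 21 tested shoot markers had a positive change (median 0.43) and 3 were called, but 1 with any one of BA replicates 1 to 3 or mock replicates 1, 3 or 4 left out. LHCA4, a light-harvesting protein gene, had 114, 116, 120.1 and 85.4 FPKM in the BA libraries, against 52.4, 90.14, 53.7 and 48.6 FPKM in the mock libraries, so mock replicate 2 overlapped the BA libraries. LHCA4 overlaps another annotated gene. Of the 11 greening genes 3 rose and 1 fell, with 5 higher without mock replicate 2 and 1 higher without mock replicate 3 or mock replicate 4. GLK2, an activator of chloroplast genes, fell by 0.65 on the log2 scale. With the shoot marker sum as a covariate, chosen after seeing the data, 1974 genes rose and 1645 fell over all genes, 3 greening genes rose and 2 fell, and HEMA1 was called. The part of the shoot marker level in these results was not tested further.

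Among the noncoding transcripts, 2 of the 44 tested miRNA precursors rose and 3 fell, shares below the 11.8% and 9.45% over all genes tested. A miRNA is a small RNA cut from such a precursor that guides the silencing of matching transcripts, and these libraries, made from polyadenylated RNA, read the precursors and not the mature forms. The mature miRNAs of the 4 precursors with the smallest adjusted p are given 5′ to 3′ from the RefSeq annotation of TAIR10.1, with the seed (bases 2 to 8) in capitals, to show which small RNAs these precursors hold.
MIR163 (chr1:24884359-24884382, plus strand): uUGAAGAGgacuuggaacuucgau
MIR414 (chr1:25137519-25137539, minus strand): uCAUCUUCaucaucaucguca
MIR159b (chr1:6220650-6220670, plus strand): gAGCUCCUugaaguucaaugg
MIR159b (chr1:6220813-6220833, plus strand): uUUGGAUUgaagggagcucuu
MIR822 (chr5:897067-897087, minus strand): uGUGCAAAugcuuucuacagg
MIR822 (chr5:897287-897307, minus strand): uGCGGGAAgcauuugcacaug
No seed was shared between precursors. The MIR163 precursor had 91.1, 118, 176 and 150.5 FPKM in the BA libraries, against 39.6, 58.5, 38.6 and 36.5 FPKM in the mock libraries. The MIR414 precursor had 494, 670.5, 719 and 751 FPKM in the BA libraries, against 182, 353, 195 and 199.6 FPKM in the mock libraries. Both were higher in every BA library, by 1.59 ± 0.23 and 1.53 ± 0.22. The MIR822 precursor had 1.67, 3.06, 3.85 and 2.51 FPKM in the BA libraries, against 17.5, 14.5, 18.1 and 15.1 FPKM in the mock libraries (-2.23 ± 0.29), and AT5G03553, an uncharacterised gene that overlaps it and was named after its value was seen, had 14.03, 10.9, 13.0 and 12.1 FPKM in the BA libraries, against 56.0, 43.3, 52.1 and 53.0 FPKM in the mock libraries (-1.95 ± 0.16). Without strand the reads of these overlapping genes cannot be told apart. The MIR159b precursor had 3.69, 1.32, 1.65 and 1.99 FPKM in the BA libraries, against 10.5, 5.41, 7.48 and 10.5 FPKM in the mock libraries (-1.59 ± 0.27). The remaining fall was that of the MIR779 precursor, named after its value was seen. Of the 121 small nucleolar RNAs tested, short guides of RNA modification, 0 rose and 16 fell, with a median of -0.52, although such RNAs are short and mostly lack a poly(A) tail, so polyadenylated libraries read them poorly.

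The response of ahp4 roots was set against that of Col roots in the same fit, as BA minus mock in ahp4 minus BA minus mock in Col, with separate mock libraries for each genotype. By limma with Benjamini-Hochberg adjustment 0 of the 18909 genes (0.0%) were called for this difference, against 511 at an unadjusted p under 0.05, and the smallest adjusted p was 0.575. The count was 0 or 1 with any of the 16 libraries left out. Of the 4011 genes called in ahp4 roots 2822 were also called in Col roots in the same direction (70.4% of the ahp4 calls and 71.1% of the 3967 Col calls among the genes tested), 2 were called in the opposite direction, and 98.9% had the same sign. The genes tested were kept by their level in ahp4 roots alone. Genes that reached 1 FPKM only in Col roots are therefore outside these counts. Of the 715 called genes with a change of 1 or more either way, 711 had the same sign in Col and 679 were called there. Across all genes tested Pearson's r between the changes of both genotypes was 0.877, which describes genes and not independent replicates. A p that misses the threshold does not show that the genotypes responded alike. The 95% interval of the difference had a median width of 0.395 on either side of the estimate. For many genes a smaller difference was therefore not detectable with 4 libraries a group. The interval is per gene and not adjusted for the 18909 genes tested, so larger differences could be missed as well. The intervals here and below use fewer degrees of freedom than the limma p-values, so they are somewhat wider than those p-values imply.

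No type-A response regulator was called for a difference between the genotypes. ARR5 changed by 2.83 ± 0.27 in ahp4 and 2.70 ± 0.27 in Col, with a difference of 0.13 (95% interval -0.69 to 0.96). ARR15 changed by 2.68 ± 0.15 in ahp4 and 2.75 ± 0.15 in Col, with a difference of -0.07 (95% interval -0.53 to 0.39). ARR8 changed by 0.78 ± 0.13 in ahp4 and 0.91 ± 0.13 in Col, with a difference of -0.13 (95% interval -0.54 to 0.27). Of the 10 genes ARR16 had the largest difference, at 2.39 ± 0.17 in ahp4 and 2.80 ± 0.17 in Col, with a difference of -0.41 (95% interval -0.92 to 0.11). All 4 intervals include 0. For IPT5 the difference was 0.12 (95% interval -0.40 to 0.65), for CYP735A2 it was 0.19 (95% interval -0.27 to 0.66) and for CKX4 it was 0.05 (95% interval -0.44 to 0.55), again with 0 inside each interval.

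UMAMIT17 was 1 of the named genes with the largest estimated differences. Its change was -2.43 ± 0.17 in ahp4 and -1.83 ± 0.17 in Col, with a difference of -0.60 (95% interval -1.14 to -0.07) and an unadjusted p of 0.0259, but an adjusted p of 0.9998 by limma. Its level itself differed between genotypes. UMAMIT17 had 46.3, 33.4, 55.8 and 42.7 FPKM in mock ahp4 roots, against 11.22, 11.01, 14.62 and 15.01 FPKM in mock Col roots. Under BA it had 7.39, 6.89, 9.80 and 5.64 FPKM in ahp4 roots, against 3.98, 2.92, 2.15 and 2.73 FPKM in Col roots. With these lower values the log2(FPKM + 1) scale understates the fall more in Col roots. How much this adds to the difference of -0.60 was not tested. The genotypes did not overlap under either treatment, and the difference of ahp4 minus Col was 1.70 under mock (limma adjusted p = 0.000175) and 1.09 under BA (adjusted p = 0.0352). The value of mock replicate 1, whose labels disagree, lay among the other ahp4 mock libraries and above every Col library. The difference was 0.74 (95% interval -0.00 to 1.49) for UGT74E2, -0.65 (95% interval -1.30 to -0.01) for RGF1 and 0.64 (95% interval -0.03 to 1.31) for CYP81F2, and none of these was called.

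**Figure D5:**
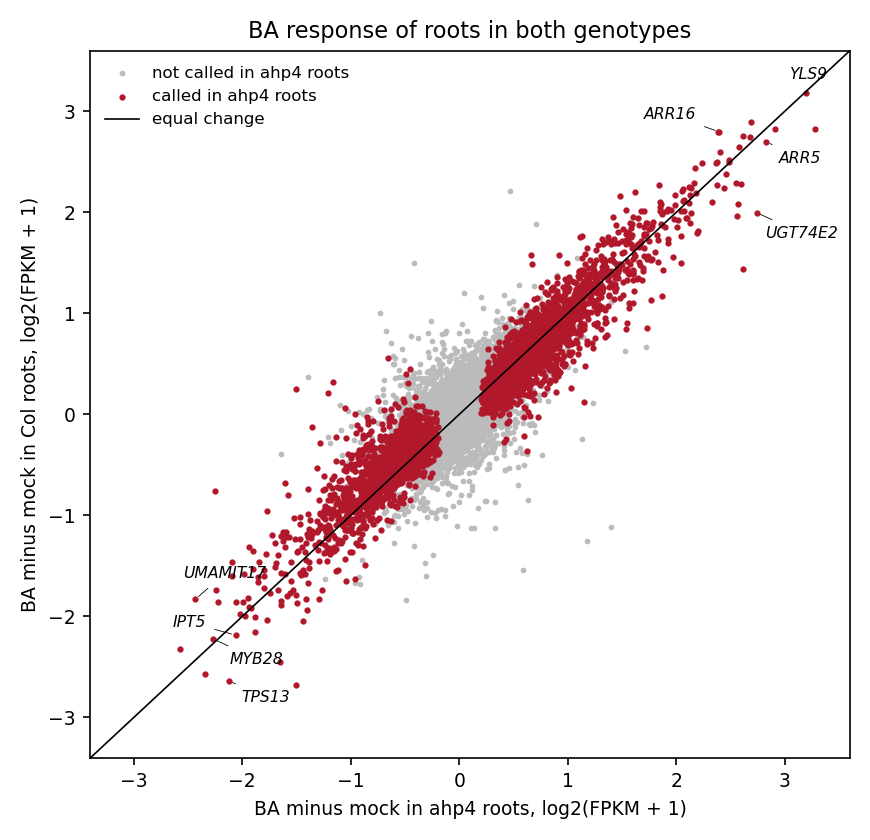
Each point is a gene, with its log2 change (BA minus mock) in ahp4 roots on the x axis and in Col roots on the y axis, and genes called in ahp4 roots in red. The line marks equal changes. Pearson's r over the 18909 genes is 0.877, and UMAMIT17 lies above the line at -2.43 in ahp4 and -1.83 in Col.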

How the data were processed

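RNA was measured by sequencing of libraries from poly(A)-selected RNA, and the authors deposited a table of FPKM values for 33199 features in 30 libraries. The only build named is TAIR10 (per the submitters' processing notes). Which aligner, counter and strand setting were used is not given in the sources used here. Within each feature the deposited FPKM values were whole multiples of a step for 100.0% of the features (within 0.01 reads), and this gave the depth of the libraries. Of the 33199 features, 6306 were at 0 in each library and could not fail this check. Genes were named through the RefSeq annotation of TAIR10.1, which matched 32548 gene codes, and sequences were read from that assembly.

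Genes that reached 1 FPKM in 3 or more of the 8 ahp4 root libraries were tested with limma 3.58.1 in R 4.3.3. The test used log2(FPKM + 1), a mean-variance trend, 1 mean for each of 4 root groups over 16 libraries and Benjamini-Hochberg adjustment, and a gene was called at an adjusted p under 0.05. The genotype difference in the response was the interaction in the same fit. FPKM values are not counts, so no count model was used. The code of the fit was run on simulated data with known changes. Those data were drawn from the spreads of the fit itself and held no outlying library, so they say nothing about the calls in the real libraries. Genes were named by a rule: the 15 called genes at each end with a symbol, a mean of at least 1 FPKM in the higher of both groups and BA libraries apart from mock libraries, the tested members of the cytokinin lists, and up to 4 called members of each other list by adjusted p. Others are marked as named after their values were seen. Not every gene that met the rule is given in the text. Those left out include AZI1, ROT3, GA2OX1, GA2OX6, CCA1, LUX and SUS4. The members and the gene lists were chosen with earlier results of these data known. Of the per-sample columns, 0 were left unmapped. Sequence motifs were searched on both strands of the 300 bases before each annotated gene start, where a match on the other strand reads AATCT. Shoot libraries entered marker sums and 1 alternative fit. The alternatives were a replicate block, other pseudocounts, filters and scalings, other sets of libraries and library weights, and leaving out each library. Leaving out mock replicates 1 and 2 together and a covariate of shoot markers were chosen after seeing the data.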

Additional observations from a re-analysis of the deposited data

Results flagged for a closer look

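In 34 of the 364 groups of 4 libraries tested, 1 library lay apart from the other 3 by Dixon's criterion at 95%, which chance meets in about 1 of 20 groups. Mock replicate 2 of ahp4 roots was that library in 23 of the 34.

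Mock replicate 2 was the highest mock library for 3 summed lists, with 773 FPKM for shoot markers, 1464 FPKM for endodermis and suberin and 142 FPKM for greening genes. It was also the highest for ASFT at 95.8 FPKM, COL5 at 59.6 FPKM, GSTU19 at 904 FPKM, HEMA1 at 31.5 FPKM, LBD3 at 17.55 FPKM, PAD4 at 12.2 FPKM, PIP1;1 at 782 FPKM, RD26 at 35.9 FPKM, SPX1 at 26.5 FPKM and TIP2;3 at 156 FPKM. Among cytokinin genes it was the highest for ARR16 at 2.16 FPKM and CKX1 at 2.01 FPKM. The miRNA precursors MIR163 at 58.5 FPKM and MIR414 at 353 FPKM were likewise highest there. It was the lowest mock library for ARR11 at 7.44 FPKM, AT3G26610 at 9.80 FPKM, CYCB1;1 at 4.86 FPKM, IAA1 at 6.38 FPKM, MAM3 at 71.0 FPKM and PHO2 at 45.4 FPKM. With this library left out each of these genes kept its direction.

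Mock replicate 1, the library whose labels disagree, was the lowest mock library for GH3.2 at 11.4 FPKM, against 24.2 to 25.8 FPKM in the other 3, and the highest for IAA5 at 0.945 FPKM. Mock replicate 4 was the highest for GH3.3 at 5.58 FPKM and for HSFA6B at 5.11 FPKM, and the lowest for XTH16 at 13.5 FPKM.

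Among the BA libraries, replicate 1 was the highest for TPS13 at 1.33 FPKM and for UMAMIT27 at 4.33 FPKM, and replicate 2 for BAT5 at 7.44 FPKM. Replicate 3 was the highest for ARR5 at 203 FPKM and for the summed vascular and xylem genes at 1318 FPKM, and replicate 4 for PTR3 at 1.64 FPKM.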

How the results depend on the processing

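Of the 172 genes given with a log2 change, 162 kept their direction and their side of the threshold under each of the 28 alternatives that tested them, 10 changed their call under at least 1 (AHP3, ARR10, ARR11, CNA, CRF5, CRF11, LOG7, MAX1, MYB46 and SCR), and 0 changed direction. Genes that met the naming rule but are not given in the text are outside this count. Among them CCA1, LUX, GA2OX6 and AZI1 lost their call under at least 1 alternative. Genes given by FPKM alone are outside this count too. Of those, the uncalled AHP6, ARR1, CKX7, IPT2 and ABCG14 changed direction under at least 1 alternative. The number of genes called was 4011, and it was 4170 with the replicate block, 3939 and 3972 with pseudocounts of 0.1 and 0.5, 3930 without a filter, 3067 with the stricter filter, 4162 after quantile normalization, 4027 on the TPM scale, 3618 with the 8 ahp4 libraries alone, 3730 with all 30 libraries and 5356 with library weights. With 1 library left out it was 3169 to 4264, of which 1790 to 2464 rose and 1371 to 1915 fell. Without mock replicates 1 and 2 the count was 2969, and 1169 genes fell, which is under the main count of 1786 by more than 1.5 times, and with the shoot marker covariate it was 3619. Fewer libraries enter the first of these fits. Of the calls 55.5% were higher, against 49.9% after quantile normalization. Of the 78 gene lists and families, 42 kept their number of called genes within 1.5 times under every alternative.

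For the genotype difference 0 genes were called, 2 with all 30 libraries (AT1G67148 and an unannotated feature, named after their values were seen) and 0 to 1 with 1 library left out, the 1 being AT1G67148 without Col root BA replicate 1. The cause was not tested. With the 8 ahp4 libraries alone this difference could not be fitted. The replicate numbers of the titles were not taken to pair the samples, since not every same-numbered pair had deviations from the group means that correlated above 0.1 across genes. Between BA and mock libraries of ahp4 roots these correlations were 0.192, -0.122, 0.022 and -0.086, and 1 of the 4 BA libraries correlated best with its own number. Between BA libraries of ahp4 and Col roots they were 0.376, 0.227, -0.068 and 0.247, and 3 of the 4 correlated best with their own number, a hint that numbers go together across genotypes under BA. With the replicate block 4170 genes were called for BA against mock and 0 for the genotype difference, AHP3 was not called and ARR11 was called as lower.

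FPKM near 1 rests on few reads, so the changes of genes such as ARR17, LOG2 and CLE4 are limited by depth.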
